A study of Homo sapiens with 4 samples.

Results

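The genes described here make, regulate, move, store or burn cholesterol and fatty acids. A list of 52 named genes was taken, and every row of the deposited tables carrying one of these gene names was kept, with a cytidine position counted once per gene. Of the 52 genes, 33 (63.5%) had at least 1 listed position. The share was 28.4% over the 20056 coding genes in the RefSeq gene table. The 52 genes were chosen with earlier results of these data known, and the coding genes were not limited to expressed ones. These shares are therefore not like for like. The 33 genes held 105 of the 17862 distinct positions listed, which lay in 6112 genes in all. By role the list comprised 15 genes of sterol synthesis, 4 regulators, 10 genes of fatty acid synthesis, 8 of fatty acid activation and oxidation, 9 of transport and 6 of storage.

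The samples were LX-2 cells, a human hepatic stellate cell line that the labels give as wild type. The 2 control libraries came from untreated cells and the 2 others from cells exposed to recombinant human TGF-β1 at 5 ng/ml, with RNA taken after 24 h. All 4 were polyadenylated RNA treated with sodium borohydride (NaBH4), which reduces N4-acetylcytidine (ac4C) so that the base can be misread in sequencing, and all came from this 1 line grown in serum-containing medium. No library is labelled as made without NaBH4 or without the ac4C writer NAT10, so a listed cytidine is a mismatch site and was not shown to be ac4C.

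Each group had 1 deposited table and therefore 1 value per position. That value, termed the mismatch difference, is a fraction given here in percent, and the subtraction behind it is not stated. The tables hold no reads, no depth and no value per library. No difference between the groups has a replicate error, so none was tested, and all comparisons describe the lists. No value exists for an unlisted position: a lower mismatch, a lower transcript level and fewer reads cannot be told apart, and nor can fewer cells carrying a transcript and less of it per cell. Markers of stellate cells were listed for 11 of 17 genes, among them COL1A1, PDGFRB and ACTA2, with 24 control and 74 TGF-β1 positions. LRAT, DES, RGS5, LUM, DCN and COL1A2 had none. Markers of hepatocytes (1 of 6), Kupffer cells (1 of 5), endothelial cells (0 of 5) and cholangiocytes (1 of 4) were listed less often. Of all coding genes 28.4% were listed, so with 4 to 6 markers per cell type these low counts say little about cell identity.

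As background, cholesterol is built from acetyl-CoA through mevalonate, farnesyl diphosphate, squalene and lanosterol in the endoplasmic reticulum. Low membrane sterol lets SCAP carry the SREBP transcription factors to the Golgi, where they are cut and released to switch on sterol and fatty acid enzymes, whereas INSIG proteins hold SCAP back. Oxysterol-binding proteins exchange lipids at membrane contacts, and esterified lipid is stored in droplets. Stellate cells of healthy liver are rich in retinoid-containing droplets, which they lose when they turn into myofibroblasts.

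Sequence could be read for 4 of the 105 member positions, those lying in the RefSeq windows (build GRCh38.p14) that run from 250 bases before to 50 after a gene start. They are shown because they include the highest value of any enzyme on the list (ACSL1) and the start of LRP1, the gene with the largest decrease in number of listed positions. The ACADVL sites were read in a window of another gene, DLG4, and lie 2863 and 2910 bases past the annotated ACADVL start. Each line runs 5′ to 3′ on the transcript's strand, with the listed cytidine in capitals.

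ACSL1, 5′ untranslated region, chr4:184825919-184825948, minus strand: agccggcggcggagcggccggtccaCggag

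LRP1, 5′ untranslated region, chr12:57128503-57128532, plus strand: ggtgcgagctccaggcccatgcaCtgagga

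ACADVL, coding sequence, chr17:7219973-7220002, plus strand: agagattcggagatgCaggcggctcggatg

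ACADVL, coding sequence, chr17:7220020-7220049, plus strand: gcagctgctgaggctCgggggcggaaggtc

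The marked bases are followed by G in ACSL1 and in the second ACADVL site, by T in LRP1 and by A in the first ACADVL site. None of the 4 stands in CCG, a context often described for ac4C. These windows also served to check the coordinates. Read as 0-based starts, all 215 control and all 316 TGF-β1 positions inside a window fell on a C of the annotated strand. CCG surrounded 25 of 210 such control positions with both neighbours in the window (11.9%) and 31 of 312 after TGF-β1 (9.94%), against 7.07% of all C in the windows, both strands counted. That last share includes the opposite strand and bases before gene starts, so the comparison is not like for like. The windows lie at gene starts and say nothing about positions elsewhere.

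The lipid genes together held 54 control and 62 TGF-β1 positions, which is a ratio of 1.15. Its 95% exact binomial interval of 0.784 to 1.69 covers counting error only. Over all genes there were 8298 and 12076 positions in total, counted once for each gene they are annotated to, a ratio of 1.46. More positions after TGF-β1 were listed in 16 of the 33 genes (48.5%), against 51.2% of all listed genes, and fewer in 14 (42.4%), against 35.3%. The remaining 3 genes had equal numbers. Of the 33 genes, 16 were in both tables, 10 in control only and 7 after TGF-β1 only (48.5%, 30.3% and 21.2%, against 44.4%, 27.3% and 28.3% of all listed genes). The shares of genes with more or fewer positions were thus near those of all genes. The order of more and fewer turned in 2 alternatives. It was 10 against 16 with lists of equal length, where all genes also turned (39.0% more, 47.3% fewer), and 10 against 12 with coding positions only, where all genes did not (53.1% and 34.1%).

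**Figure D1:**
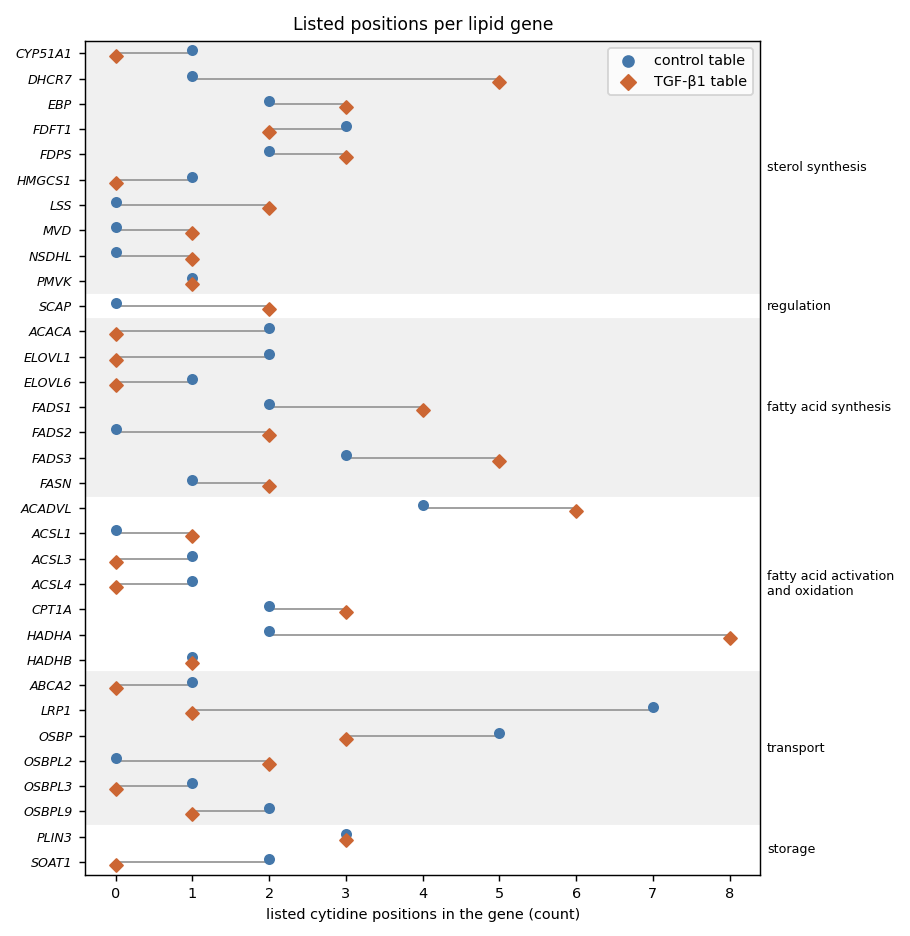
Number of listed cytidine positions (horizontal axis, count) in each of the 33 lipid genes with any, in the control table (blue circles) and the TGF-β1 table (orange diamonds), grouped by role; each table is 1 value per gene with no error. HADHA goes from 2 to 8 and LRP1 from 7 to 1.

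By role, the sterol enzymes went from 11 to 18 positions, the oxidation genes from 11 to 19 and the fatty acid synthesis genes from 11 to 13. Transport genes went the other way, from 16 to 7, and storage genes from 5 to 3. The ratios were 1.64 for sterol synthesis (0.732 to 3.83), 1.73 for activation and oxidation (0.781 to 4.02), 1.18 for fatty acid synthesis (0.489 to 2.91), 0.438 for transport (0.152 to 1.12) and 0.6 for storage (0.0932 to 3.08). Each of these counting intervals holds 1. That of transport lies below the 1.46 of all genes, and the others hold it. Without LRP1 the transport ratio was 0.667 (0.195 to 2.10), an interval that holds 1.46 as well. Sterol and fatty acid synthesis together had 22 and 31 positions in 17 listed genes, a ratio of 1.41 close to that of all genes. Differences between the roles were not tested.

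Over all genes the ratio fell with gene span. With all genes divided into 4 equal classes by span, the ratio was 2.08 in the shortest, 1.87 and 1.46 in the next ones and 0.818 in the class above 65.6 kb. The lipid genes showed no steady fall, with ratios of 1.30, 1.625, 1.47 and 0.471 from the shortest class to the longest. Those above 65.6 kb had 17 control and 8 TGF-β1 positions, and without the transport genes 7 and 6. The listed transport genes had a median span of 74.6 kb, with 3 of 6 above 65.6 kb. The listed sterol enzymes had a median of 25.4 kb and none above 65.6 kb. The listed oxidation genes were nearly as long as the transport genes, at a median of 71.2 kb with 4 of 7 above 65.6 kb. Their ratio, 1.73, was nevertheless the highest of the roles, so the ratios of the roles did not follow span throughout. The part of span in the contrast between roles was not tested.

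**Figure D2:**
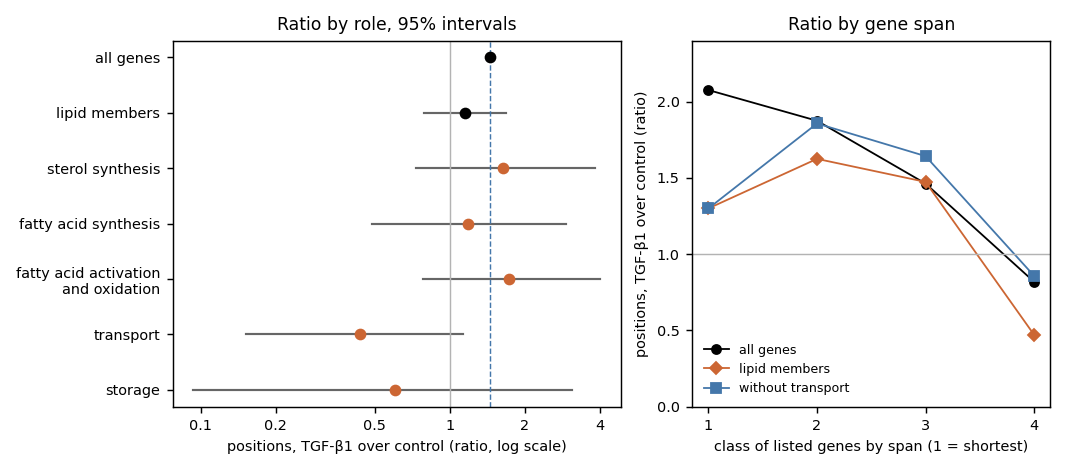
Left, listed positions after TGF-β1 over control (ratio, log axis) for all genes, the lipid genes and 5 roles, with 95% exact binomial intervals that cover counting error only; the dashed line marks all genes (1.46). Right, the same ratio by class of gene span (1 shortest, 4 longest) for all genes, lipid genes and lipid genes without transport; it falls to 0.818 for all genes and 0.471 for lipid genes in the longest class.

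Early steps of sterol synthesis carried few positions. HMGCS1, which makes HMG-CoA, had 1 coding position at 6.27% in control only. PMVK, the phosphomevalonate kinase, had a single coding position listed in both tables, at 5.70% in control and 10.4% after TGF-β1 (chromosome 1 position 154929102). MVD, which decarboxylates mevalonate diphosphate, had a 3′ untranslated position at 9.14% after TGF-β1 only. MVK and IDI1 had none.

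FDPS, the farnesyl diphosphate synthase, had 2 positions in control, at 5.54% and 9.71%, and 3 after TGF-β1, at 1.81%, 8.74% and 12.7%, all coding. The shared one (chromosome 1 position 155310199) was at 5.54% and 8.74%. FDFT1, the squalene synthase, had 3 coding positions in control at 4.05%, 4.12% and 8.76%, of which the first was listed again at 5.95%. Its other TGF-β1 position, in the 5′ untranslated region, was at 12.8%. Within both genes the highest value stood in the TGF-β1 list, but the ranges of the groups overlapped.

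Among the later enzymes DHCR7, which performs the last reduction to cholesterol, showed the widest change in number, from 1 position to 5. In control a coding cytidine (chromosome 11 position 71435438) stood at 15.5%. After TGF-β1 that cytidine was not listed, and 5 others were: 3.35% at each of 2 positions of the 5′ untranslated region, 9.61% in coding sequence, and 8.08% and 11.998% at adjacent cytidines of the 3′ untranslated region. The control value was thus higher than any value after TGF-β1. A deposited p-value of exactly 0 goes with the control position and with the last 3 of the TGF-β1 positions.

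EBP, the sterol isomerase, had coding positions at 2.42% and 3.39% in control. After TGF-β1 it was listed at 2.78%, 8.71% and, in the 3′ untranslated region, 5.81%. The lowest of these, chromosome X position 48528445, was the shared one and moved by 0.36 points. The control position at 3.39% is also annotated to a second gene, as is the only position of CYP51A1, the lanosterol demethylase, at 2.03% in control.

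LSS, the cyclase that makes lanosterol, had coding positions at 4.89% and 7.31% after TGF-β1 only. NSDHL, which acts in removal of the C4 methyl groups, had 1 at 7.66% after TGF-β1 only. SQLE, MSMO1 and SC5D, all oxygenases or desaturases of the pathway, had none. At all 4 shared positions of the sterol enzymes the value was higher after TGF-β1, with a median difference of 2.55 points. Over all shared positions 78.4% were higher and the median was 1.70 points. Leaving out DHCR7 gave 10 and 13 positions for the sterol enzymes, a ratio of 1.30.

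Of the 4 regulators 1 was listed (25%), a share near the 28.4% of coding genes, and of 11 further regulators 6 were (54.5%). SCAP, the sterol sensor that escorts SREBPs, had 2 coding positions after TGF-β1, at 3.66% and 11.3%, and 0 in control. SREBF1 and SREBF2, which encode the SREBPs, and INSIG1, which retains SCAP, had none in either table. With 0 positions in control no ratio could be given.

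In fatty acid synthesis ACACA, the cytosolic acetyl-CoA carboxylase, had coding positions at 5.56% and 6.90% in control and 0 after TGF-β1. It is the longest member listed, at 322 kb. FASN, the fatty acid synthase, had 1 coding position in control at 11.7% and 2 others after TGF-β1, at 9.80% and 12.1%. All 3 FASN positions lay between 81.2% and 85.7% of the way along the gene. The control value fell between the values after TGF-β1.

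The elongases were listed in control only. ELOVL1, which extends very long chains, had a 3′ untranslated position at 5.30% and a coding one at 2.403%. ELOVL6, which extends 16-carbon chains, had a 5′ untranslated position at 7.18%. ELOVL5, ACACB and the stearoyl-CoA desaturase gene SCD had none.

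The FADS genes, which encode front-end desaturases and a related protein and lie side by side on chromosome 11, ran against the elongases. FADS1 had 2 positions in control, at 3.83% and 4.38%, and 4 others after TGF-β1, at 2.01%, 3.15%, 4.97% and 8.26%. Of these 6 positions, 4 lay in the 3′ untranslated region. FADS2 had 2 after TGF-β1 only, at 7.01% in the 5′ untranslated region and 9.58% in coding sequence. The FADS1 span of 29.7 kb lies within that annotated for FADS2 on the opposite strand, so that the assignment rests on the strand column of the tables.

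FADS3 and HADHA were the members with 2 shared positions. The shared coding cytidines of FADS3 (chromosome 11 positions 61876404 and 61878774) were at 2.31% and 3.35% in control and at 3.71% and 3.97% after TGF-β1. A 3′ untranslated cytidine at 2.68% was listed in control only, and the cytidine 4 bases from it, at 3.50%, after TGF-β1 only. Both have a deposited p-value of exactly 0. The remaining TGF-β1 positions were at 2.32% and 5.36%. The values of the groups overlapped. Without any of the FADS1, FADS2 or FADS3 genes, taken out singly, the fatty acid synthesis genes had equal numbers in both tables.

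**Figure D3:**
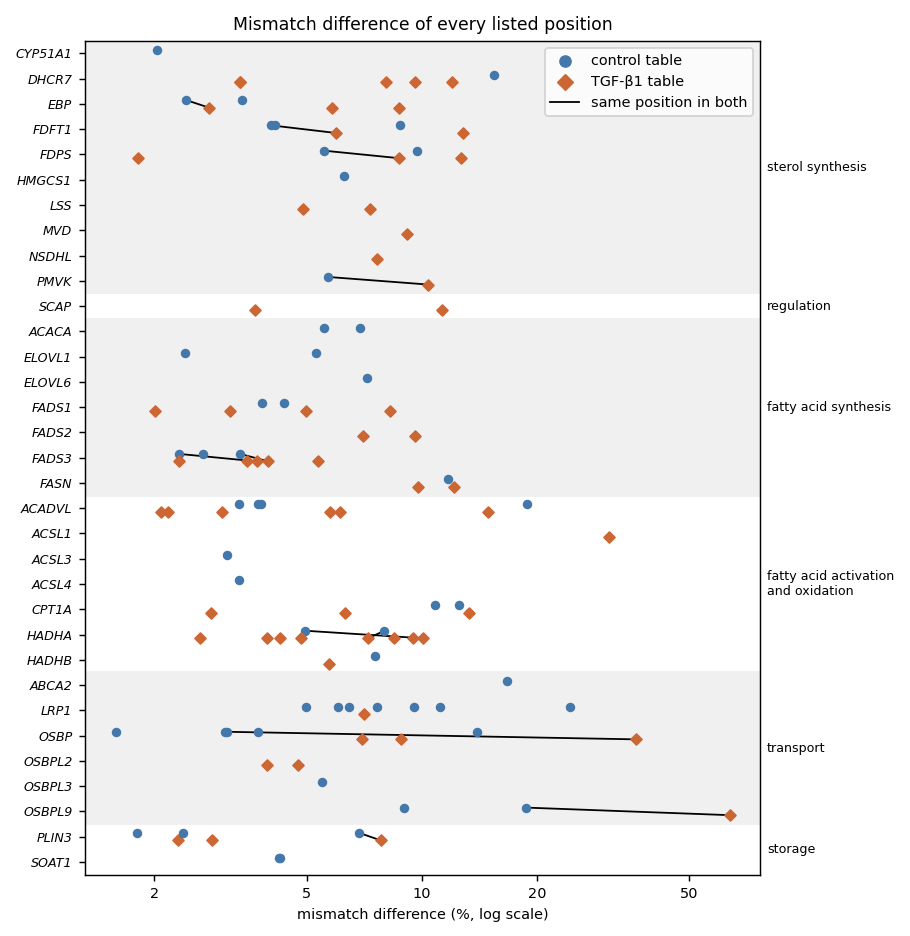
Mismatch difference (horizontal axis, percent, log scale) of each listed position in the 33 lipid genes, in the control table (blue circles) and the TGF-β1 table (orange diamonds), with black lines joining the 11 cytidines listed in both. Most joined values lie close together, and the long lines belong to OSBP (3.10% and 36.3%) and OSBPL9 (18.7% and 63.7%).

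Oxidation genes carried the members with most positions. ACADVL, the very-long-chain acyl-CoA dehydrogenase of the mitochondrial inner membrane, had 10 distinct coding positions, of which 4 were control and 6 TGF-β1 positions, with none shared. The control values were 3.33%, 3.74%, 3.81% and 18.8%. Those after TGF-β1 were 2.08%, 2.18%, 2.998%, 5.77%, 6.12% and 14.9%. The lists overlapped in level, each with 1 value above 10%. Listed cytidines of different groups came within 3 bases of each other, at chromosome 17 positions 7224233 (6.12%, TGF-β1) and 7224236 (3.74%, control). The sites of the ACADVL sequences printed above were at 5.77% and 2.18%.

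HADHA, the alpha subunit of the mitochondrial trifunctional protein, had 2 coding positions in the control table and 8 in the other, the largest gain on the list. Both control positions recurred. That at chromosome 2 position 26204176 was at 4.95% and 10.1%, whereas that at position 26193663 was at 7.98% and 7.24%, the only shared lipid position with a lower value after TGF-β1. The 6 added positions were at 2.64%, 3.94%, 4.26%, 4.84%, 8.47% and 9.46%, a range that holds the control values. HADHB, the beta subunit, had 1 coding position in each table, at 7.53% and 5.72%, and they were different cytidines. Without HADHA the oxidation genes had 9 and 11 positions, a ratio of 1.22.

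CPT1A, which forms acylcarnitines at the outer membrane, had coding positions at 10.8% and 12.5% in control. After TGF-β1 other positions were listed, at 2.81% and 13.2% in coding sequence and at 6.28% in the 3′ untranslated region. CPT2, its inner-membrane partner, had none.

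Of the acyl-CoA synthetases that activate fatty acids, ACSL3 and ACSL4 each had 1 coding position in control only, at 3.10% and 3.33%. ACSL1 had 1 after TGF-β1 only, at 30.8%, in the 5′ untranslated region at chromosome 4 position 184825923, within the ACSL1 sequence printed above. That was the third-highest value among the lipid genes, after OSBPL9 and OSBP, and has a deposited p-value of 4.86e-07. The 3 synthetases thus had 1 cytidine each and no shared one.

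Transport genes had the largest loss and the largest shared differences. LRP1, the endocytic receptor for apolipoprotein-bearing remnants, proteases and other ligands, had 7 control positions and 1 after TGF-β1. The control values were 5.00%, 6.03%, 6.45%, 7.65%, 9.55%, 11.1% and 24.4%. They were spread over the gene, from the 5′ untranslated cytidine printed above (7.65%), 43 bases past the gene start, to a coding one 85.6% of the way along. The highest, chromosome 12 position 57179353, has a deposited p-value of exactly 0. The TGF-β1 position, at 7.08%, was another cytidine, 105 bases from the control position at 5.00%. Its value lay within the control range. Without LRP1 the transport genes had 9 control and 6 TGF-β1 positions, which gives 0.667.

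OSBP, the oxysterol-binding protein that exchanges sterol for phosphatidylinositol 4-phosphate between endoplasmic reticulum and Golgi, had 5 control positions and 3 after TGF-β1. The control values were 1.59%, 3.06%, 3.10%, 3.74% and 13.9%. Those after TGF-β1 were 6.96%, 8.80% and 36.3%. The shared cytidine, in coding sequence at chromosome 11 position 59601312 on the minus strand, went from 3.10% to 36.3%, a difference of 33.2 points and 3.55 on the log2 scale. Its deposited p-value was 1.89e-06 in control and 0.00152 after TGF-β1, so that the far larger difference carries the weaker p-value. The control cytidine at 13.9%, position 59601354, lies 42 bases away and was not listed after TGF-β1.

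OSBPL9, a Golgi-associated relative of OSBP, had coding positions at 9.00% and 18.7% in control. The latter, chromosome 1 position 51786600, was listed again at 63.7%, the highest value among the lipid genes, with a difference of 45.1 points and a deposited p-value of 1.59e-150. OSBPL3 had 1 coding position at 5.50% in control only. OSBPL2 was the only transport gene with more positions after TGF-β1, with 2, at 3.94% and 4.76%, and 0 in control. OSBPL8 and OSBPL10 had none. The OSBP family together went from 8 to 6 positions, so the loss in transport came mainly from LRP1, while both large shared differences came from this family.

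Of the ABC transporters, ABCA2, which moves lipid in endolysosomal membranes, had 1 coding position at 16.7% in control only, with a p-value of exactly 0. ABCA1, which exports cholesterol to apolipoproteins, had none.

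In storage, PLIN3, a droplet coat protein that also occurs free in the cytosol, had 3 coding positions in each table. The control values were 1.80%, 2.38% and 6.86%, and those after TGF-β1 were 2.31%, 2.82% and 7.82%. The highest of each set was the same cytidine (chromosome 19 position 4859597), 0.96 points higher after TGF-β1. The other TGF-β1 positions were adjacent cytidines. SOAT1, which esterifies cholesterol, had a 5′ untranslated and a coding position in control only, at 4.26% and 4.23%. PLIN2, DGAT1, LPIN1 and PNPLA2, which coat droplets or make and break triglyceride, had none.

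**Figure D4:**
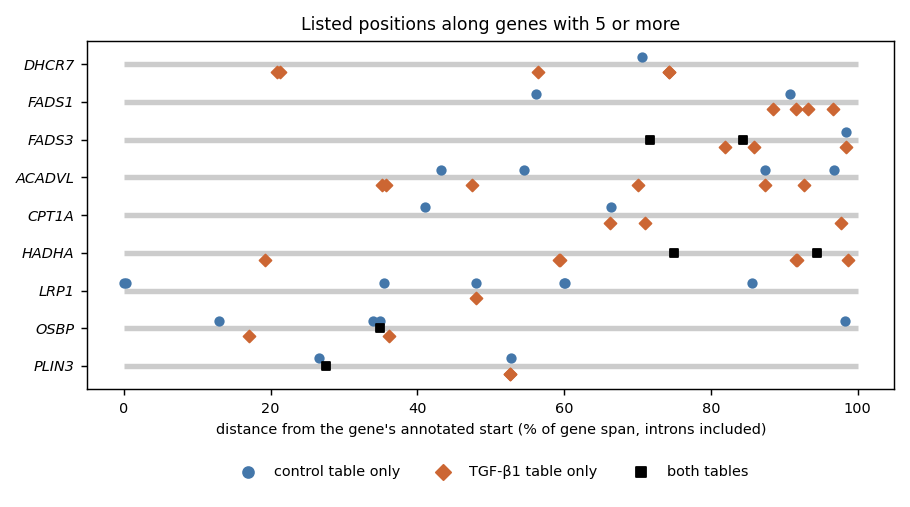
Listed positions along the 9 lipid genes with 5 or more, as distance from the annotated gene start in percent of gene span (introns included), for positions in the control table only (blue circles), the TGF-β1 table only (orange diamonds) and both (black squares). LRP1 has control positions from its start to 85.6% of its span, and ACADVL has positions of both lists interspersed with no shared cytidine.

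Across all members 11 cytidines were in both tables, 20.4% of the 54 control positions (24.5% over all control positions) and 17.7% of the 62 TGF-β1 positions (16.9% over all). They lay in 9 genes and all in coding sequence. Of the 11, 10 were higher after TGF-β1 (90.9%), against 78.4% of the 1985 shared positions of all genes. The median difference was 1.91 points (order-statistic interval 0.36 to 33.2), and 1.70 over all shared positions counted per gene. A rise of 10 points or more was seen at 2 of 11, in OSBP and OSBPL9, against 6.95% of all. The remaining differences ran from -0.74 to 5.12 points.

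The listed levels were somewhat above those of all genes in both groups, a difference that was not tested. The median mismatch difference was 5.40% in control and 6.20% after TGF-β1, with 4.04% and 4.68% over all genes. Values of 10% or more were listed at 10 control positions (18.5% of them, against 12.4% of all control positions) and at 12 TGF-β1 positions (19.4%, against 18.5% of all TGF-β1 positions). Of the 10 high control positions, 1 was listed again, that of OSBPL9, and the same held for 17.9% of such positions in all genes. Of the 12 high TGF-β1 positions, 4 (33.3%) were in the control list, against 22.4% in all genes. None of the 7 control and 6 TGF-β1 lipid positions with a p-value of exactly 0 was in the other table, and over all genes 5.52% and 4.33% of such positions were.

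In control 45 of 54 lipid positions (83.3%) were in coding sequence, 4 in 5′ and 5 in 3′ untranslated regions. After TGF-β1 these numbers were 47 of 62 (75.8%), 6 and 9. Over all positions 74.7% and 76.3% were coding. Of the sterol enzymes' positions, 10 of 11 were coding in control, with 1 in a 3′ untranslated region, and 11 of 18 after TGF-β1, with 3 in 5′ and 4 in 3′ untranslated regions. Lipid positions lay at a median of 64.1% of the gene span in control and 74.6% after TGF-β1, and those of all genes at 67.5% and 66.7%. Of the 105 lipid positions 10 (9.52%) had another listed position of the gene within 10 bases, against 16.4% of all.

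A further list of 92 genes of the same pathways had 40 listed genes (43.5%, against 63.5% of the members and 28.4% of coding genes). They held 56 control and 74 TGF-β1 positions (ratio 1.32, 0.921 to 1.90). Of the 40 genes, 17 had more positions (42.5%, against 51.2% of all listed genes) and 12 fewer (30%, against 35.3%). By role its positions went from 5 to 17 in sterol synthesis (ratio 3.40, 1.204 to 11.8), from 10 to 11 in regulation and from 12 to 10 in fatty acid synthesis. They went from 12 to 13 in oxidation, from 12 to 15 in transport and from 5 to 8 in storage. The intervals of all these roles but sterol synthesis hold 1, and all of them, sterol synthesis included, hold the 1.46 of all genes. In number of positions the sterol genes thus went the same way as the sterol members. At shared positions 2 of their 4 (50%) were higher after TGF-β1, against 4 of 4 in the sterol members and 78.4% of all. The transport genes had slightly more positions where the transport members had fewer. In transport, STARD3, a sterol carrier of late endosomes, had 1 and 4, and SCARB2, a lysosomal membrane protein, had 3 and 1. The citrate-cleaving enzyme ACLY had 7 and 9, and HACD3, a dehydratase of chain elongation, 3 and 0. The electron-transfer subunits ETFA and ETFB had 3 and 4 positions in each table. The SREBP protease MBTPS1 had 3 and 2, and the acyltransferases GPAT4 and AGPAT3 had 2 in each and 1 and 2. Of its 14 shared positions, 11 (78.6%) had the higher value in the TGF-β1 table, against 78.4% over all genes.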

How the data were processed

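For each group the authors deposited 1 table, whose lines pair positions with transcripts. Per the file headers, a column named diff holds a fraction (0.01 or more, printed in percent) and another a p-value, below 0.05 throughout. Whether that p-value was adjusted is not stated. The submitters' processing notes name fastp 0.23.1, STAR 2.7.6a, featureCounts and hg38. The caller, its filters and the way replicates were combined were not given in the sources used here. Depth is unknown.

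Lines were merged to 1 row per position and gene name with pandas 2.3.3, and ends are printed as 1-based positions. Counts per gene, ratios and medians were computed with no test between groups. Intervals are exact binomial (scipy 1.17.1) or order-statistic, 95%, and treat positions as units. Counting and intervals were checked on simulated data. Sequences came from RefSeq windows, which hold 48 of the 52 genes. Members, roles and lists were chosen with earlier results of these data known. Every member is given, and members with 3 or more positions, a shared one or one of 10% or more with all values. Up to 2 further pathway genes per role with most positions are named. A few genes that this rule names are left out of the text. The alternatives were stricter p-values (0.01, 0.001), a minimum of 5%, equal list lengths, 1 gene per position, coding positions, no p of exactly 0 and, added later, leaving out LRP1.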

Additional observations from a re-analysis of the deposited data

How the results depend on the processing

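Of 72 values recomputed under alternatives, 5 moved beyond the counting interval or 1.5 times the count. When only the 8112 TGF-β1 positions of lowest p were kept, as many as in control, the lipid ratio was 0.778 (all genes 1.00), that of transport 0.125, and 10 genes had more and 16 fewer positions. With coding positions only, 10 had more and 12 fewer. With positions of at least 5%, 4 of 5 shared positions were higher. The transport ratio stayed below 1 under all 8 alternatives (0.125 to 0.667), reaching 0.667 without LRP1, a choice made after seeing the data. Storage ranged from 0.6 to 1.5 and fatty acid synthesis from 0.909 to 2, so their direction was not stable. The median shared difference ranged from 1.65 to 3.20 points. Regulation, with 0 control positions, gave no ratio. No paired analysis was possible because each table holds 1 value per group, and for the same reason no replicate could be left out. With unknown depth, an unlisted position sets no upper limit.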
